A study of Homo sapiens with 6 samples.

Results

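The ZIC genes encode zinc finger transcription factors, and 4 of them form a pair of neighbouring pairs: ZIC1 beside ZIC4 on chromosome 3, and ZIC2 beside ZIC5 on chromosome 13. These 4 members were found by matching their symbols to Ensembl gene IDs, and all 4 were among the 60499 genes of the deposited tables. They were measured by total RNA sequencing of H1, a long-established line of human embryonic stem cells. The cells grew for 4 days in NutriStem, a defined stem cell medium renewed every day, and RNA was taken at confluence. One group of 3 wells was coated with the basement membrane protein laminin-521 (LN-521), and the other group of 3 wells with laminin-521 and laminin-221 together (LN-521+LN-221). Cell line, medium and laminin-521 were therefore common to all 6 wells, and the coatings differed in laminin-221. The question was how the added laminin-221 went with the RNA level of each ZIC gene and with the balance inside each pair. All wells come from 1 cell line, and nothing in the labels says that they began as separate cultures, so p-values measure only the spread between these wells, which may be technical.

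ZIC proteins bind DNA through a run of C2H2 zinc fingers related to those of the GLI factors, the transcriptional effectors of hedgehog signalling. In the embryo they act in the epiblast, the neural plate, the dorsal neural tube and the neural crest. ZIC2 is also active in pluripotent stem cells, where it occupies enhancers. ZIC1 and ZIC4 act together in the developing cerebellum, and loss of ZIC2 in humans disturbs division of the forebrain. The genes of each pair are transcribed away from each other on opposite strands.

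In GRCh38 with GENCODE release 29, ZIC1 (ENSG00000152977) occupied chr3:147393422-147510293 on the plus strand and ZIC4 (ENSG00000174963) chr3:147386046-147406860 on the minus strand. Their outermost transcripts made the gene bodies overlap, and 176 exon bases, 2.59% of those of ZIC1 and 2.05% of those of ZIC4, lay in exons of both genes on opposite strands. Whether the counting used the strand is not given in the sources used here, so reads from those bases cannot be told apart between ZIC1 and ZIC4. ZIC2 (ENSG00000043355) occupied chr13:99981772-99986773 on the plus strand and ZIC5 (ENSG00000139800) chr13:99962964-99971909 on the minus strand. Their 5′ ends lay 9863 bp apart and no exon base was shared.

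Sequence upstream of a RefSeq start is shown for ZIC1, ZIC2 and ZIC5, the members with enough counts to be tested, to give the base composition there. The sequences are from RefSeq (GRCh38.p14), written 5′ to 3′ on the strand of the gene, with CG dinucleotides in capitals.
ZIC1, chr3:147409115-147409364, plus strand: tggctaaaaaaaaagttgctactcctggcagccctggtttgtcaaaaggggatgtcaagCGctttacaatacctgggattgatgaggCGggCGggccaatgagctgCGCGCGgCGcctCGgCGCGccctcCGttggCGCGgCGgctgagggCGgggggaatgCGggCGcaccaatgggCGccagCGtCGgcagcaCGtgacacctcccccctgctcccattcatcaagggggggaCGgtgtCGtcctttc
ZIC2, chr13:99981534-99981771, plus strand: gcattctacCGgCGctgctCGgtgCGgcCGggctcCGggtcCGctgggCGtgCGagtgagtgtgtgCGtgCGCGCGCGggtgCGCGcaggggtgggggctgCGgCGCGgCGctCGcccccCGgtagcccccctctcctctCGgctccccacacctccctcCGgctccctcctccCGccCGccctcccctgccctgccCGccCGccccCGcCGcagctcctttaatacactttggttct
ZIC5, chr13:99971910-99972159, minus strand: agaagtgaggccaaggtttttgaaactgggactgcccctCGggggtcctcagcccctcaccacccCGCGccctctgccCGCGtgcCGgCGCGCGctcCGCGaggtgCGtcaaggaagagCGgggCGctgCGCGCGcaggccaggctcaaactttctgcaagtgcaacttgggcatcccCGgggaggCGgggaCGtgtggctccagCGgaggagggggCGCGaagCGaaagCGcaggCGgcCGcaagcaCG
Over the full 250 bases upstream of the RefSeq start, ZIC2 held 31 CG dinucleotides at 75.6% GC, and ZIC5 held 28 at 70.4% GC in the window printed. Before its other RefSeq starts ZIC5 held 12 at 61.6% GC and 21 at 64.8% GC. ZIC1 held 23 CG dinucleotides at 64.4% GC, before a RefSeq start that lies 15943 bases inside the outermost GENCODE start. Among 35116 RefSeq windows of the same length the median was 11 CG dinucleotides and 58% GC. At least as many CG dinucleotides as before the printed starts of ZIC2, ZIC5 and ZIC1 stood in 10.9%, 15.9% and 25.8% of windows. ZIC4 had 4 annotated starts, and the window nearest its outermost GENCODE start held 9 CG dinucleotides at 42.8% GC. The windows before its other starts held 16 at 58.8% GC, 7 at 60% GC and 2 at 49.6% GC. The letters CCAAT, searched on both strands, occurred 2 times in the ZIC1 window and 0 times in the ZIC2 and ZIC5 windows printed, against 32% of all windows with at least 1, and 3 times before another RefSeq start of ZIC5 that lies 142 bases away. TATAAA and GACCACCCA, the latter the consensus bound by GLI factors, were searched on both strands and occurred in none of the 9 windows of the 4 genes. They occurred in 10.7% and 0.199% of all windows. These matches describe the letters of the windows only.

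The coding sequences of the family resemble each other, so the longest stretches shared by their transcripts were also found, since they bear on whether a read can be placed. The longest identical runs within and between the pairs, all inside coding sequence, were the following, in capitals throughout because every base is shared.
ZIC1 (chr3:147410921-147410963, plus strand) and ZIC2 (chr13:99982966-99983008, plus strand): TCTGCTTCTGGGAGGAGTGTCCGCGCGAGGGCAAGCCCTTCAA
ZIC2 (chr13:99982983-99983020, plus strand) and ZIC5 (chr13:99970246-99970283, minus strand): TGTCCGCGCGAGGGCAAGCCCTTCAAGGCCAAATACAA
ZIC1 (chr3:147410986-147411017, plus strand) and ZIC4 (chr3:147395929-147395960, minus strand): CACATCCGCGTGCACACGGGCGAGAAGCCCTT
These runs are 43, 38 and 32 bases long, shorter than the 150 bp reads. In all 6 libraries the estimated counts of the 4 members were whole numbers within a tolerance of 1e-06, so none of these counts showed a read divided between genes.

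The 6 libraries held 20606494 to 26836727 estimated counts on 27076 to 27938 genes, all from 1 sequencing batch. Of the 60499 genes, 17608 passed the filter on low counts and were tested with edgeR's quasi-likelihood test. Adjusted p was under 0.05 for 446 of them, 2.53% of those tested, with 1.40% higher and 1.14% lower on LN-521+LN-221. The pluripotent identity of the wells was checked with markers. All 8 pluripotency markers passed the filter, and their summed level was 2596 to 2902 TPM (a level scaled for transcript length and library total) on LN-521 against 2478 to 2683 TPM on LN-521+LN-221, with 1 marker higher and 3 lower by the test. NANOG, a core pluripotency factor, fell from 107 ± 10.3 to 64.5 ± 7.93 CPM, scaled counts (log2 fold change -0.73 ± 0.09, edgeR adjusted p = 0.000165). TDGF1, which encodes a NODAL co-receptor, changed by -0.65 ± 0.06 (adjusted p = 8.23e-06), POU5F1 by -0.36 ± 0.06 (adjusted p = 0.00366) and the RNA-binding protein gene LIN28A by 0.23 ± 0.05 (adjusted p = 0.00737). Counts of NANOG and POU5F1 in all 6 libraries and of TDGF1 in 5 were not whole, so reads had been divided with other genes. The part of these shifts in the ZIC values was not tested.

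Per transcript length, the members fell into a high and a low pair that lay far apart on both coatings. ZIC2 had the highest level, 25.6 ± 2.45 TPM on LN-521 against 29.1 ± 2.15 TPM on LN-521+LN-221 (SD, n = 3). ZIC5 followed at 15.1 ± 2.47 TPM and 17.8 ± 2.02 TPM. ZIC1 stood at 0.197 ± 0.0252 TPM and 0.453 ± 0.150 TPM, and ZIC4 at 0.070 ± 0.0781 TPM and 0.107 ± 0.0416 TPM. The order ZIC2, ZIC5, ZIC1, ZIC4 held in each of the 6 wells. In the LN-521 wells ZIC1 ranged from 0.17 to 0.22 TPM and ZIC4 from 0.02 to 0.16 TPM, so the ranges of these neighbours in the order nearly met. ZIC2 made up 60.5% to 65.9% of the TPM of the 4 members in a well, ZIC5 33.5% to 38.7%, ZIC1 0.432% to 1.33% and ZIC4 0.0521% to 0.346%.

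**Figure D1:**
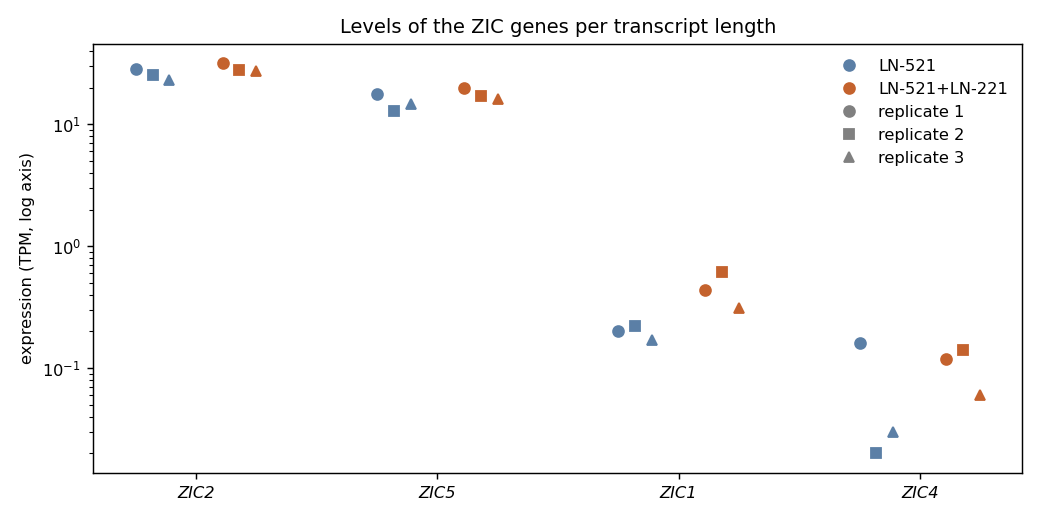
Level per transcript length (TPM, log axis) of the 4 ZIC genes, in order of level; each point is 1 well, coloured by coating and shaped by replicate number. ZIC2 and ZIC5 lie at 12.84 TPM or more in every well, and ZIC1 and ZIC4 at 0.61 TPM or less.

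ZIC1 was the 1 member whose RNA changed by the test, where 2.53% of all genes tested did, and it rose from a very low level. Its estimated counts were 9, 9 and 11 in the LN-521 wells and 21, 27 and 19 in the LN-521+LN-221 wells. Scaled to a common library size, as CPM, these were 0.392, 0.338 and 0.441 on LN-521 against 1.01, 1.21 and 0.802 on LN-521+LN-221. Every LN-521+LN-221 well lay above every LN-521 well, as for 10.2% of all genes tested. The lowest LN-521+LN-221 well was the one numbered 3. The mean rose from 0.391 ± 0.0516 to 1.01 ± 0.204 CPM (SD, n = 3), a log2 fold change of 1.36 ± 0.35 (SE) with a 95% interval of 0.62 to 2.09, or 2.56-fold. The edgeR adjusted p was 0.0474, which placed ZIC1 431st of 17608 genes by p. ZIC1 met the low-count filter, 0.428 CPM in 3 wells, through the LN-521+LN-221 wells: all 3 of these reached it and 1 LN-521 well did, so ZIC1 would not have been tested on the LN-521 wells alone. In these bulk libraries, more cells with ZIC1 RNA and more ZIC1 RNA per cell cannot be told apart.

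The ZIC1 call lay next to the threshold. With any 1 of the 6 libraries left out, the log2 fold change was 1.203 to 1.499 and the edgeR adjusted p 0.0535 to 0.272, so that none of those 6 fits passed. Adjusted p was 0.0501 with scaling by library size alone and 0.133 in DESeq2.

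ZIC4 had too few counts to pass the filter, which 0 LN-521 wells and 1 LN-521+LN-221 well reached. It had 7, 2 and 3 counts in the LN-521 wells and 10, 8 and 7 in the LN-521+LN-221 wells. In CPM these were 0.305, 0.0752 and 0.120 against 0.482, 0.359 and 0.296, so the LN-521 well numbered 1 lay within the range of the other group. The summed counts were 12 and 25, and the ratio of the summed CPM was 2.33, with a 95% interval of 1.13 to 5.08 that covers counting error only. On the log2 scale that ratio was 1.22, and 1.95 without the LN-521 well numbered 1. Between wells, a two-sided exact permutation test of ZIC4 CPM gave p = 0.2, where 3 wells against 3 cannot go below 0.1.

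ZIC2 did not pass the test. Its CPM was 87.2, 81.2 and 78.6 on LN-521 against 98.1, 92.2 and 93.3 on LN-521+LN-221. The groups did not overlap in CPM, which was so for 19.9% of all genes tested and in this direction for 10.2%, but in TPM the LN-521 well numbered 1, at 28.17, was above 2 of the LN-521+LN-221 wells, at 28.12 and 27.61. The mean CPM was 82.4 ± 4.40 and 94.5 ± 3.14, a log2 fold change of 0.20 ± 0.06 with a 95% interval of 0.07 to 0.33, or 1.15-fold. The edgeR adjusted p was 0.1001.

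ZIC5, the neighbour of ZIC2, had a similar log2 fold change. Its CPM was 91.2, 78.4 and 85.8 on LN-521 against 106, 93.7 and 93.3 on LN-521+LN-221. Here too no well of 1 coating reached into the CPM range of the other, with 91.2 in the highest LN-521 well and 93.3 in the lowest LN-521+LN-221 well. In TPM the LN-521 well numbered 1, at 17.75, was above the LN-521+LN-221 wells at 16.97 and 16.25. The mean was 85.1 ± 6.42 and 97.6 ± 7.07 CPM, a log2 fold change of 0.20 ± 0.07 with a 95% interval of 0.05 to 0.34, and the edgeR adjusted p was 0.170.

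ZIC2 and ZIC5 each lay at 0.20 on the log2 scale, where the median of all genes tested was -0.0011. Without the LN-521 well numbered 1 the edgeR adjusted p was 0.0101 for ZIC2 and 0.0198 for ZIC5, with log2 fold changes of 0.24 and 0.25, and the genes past the threshold rose from 446 to 1179 over the whole table. For each gene this was the 1 fit of 6 with a library left out that passed. Adjusted p reached 0.396 for ZIC2 and 0.541 for ZIC5 in the others. The limma fits on TPM gave adjusted p of 0.756 and 0.777 with 1 added, and of 0.764 and 0.787 with 0.1 added. With all 6 libraries both passed under a replicate block with GC correction (adjusted p = 0.000962 and 0.00553), an alternative added after seeing the data. RNAs of the 7SL family took 30.1% of the TPM in the LN-521 well numbered 1 and 31.1% to 37.3% in the others. Whether this bears on the overlap in TPM was not tested.

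**Figure D2:**
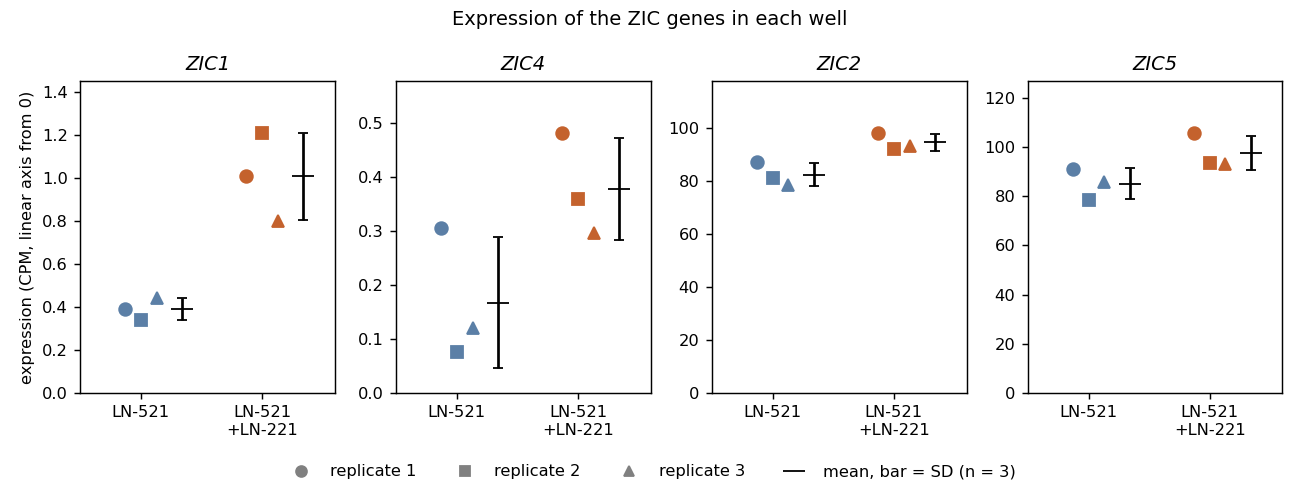
Expression (CPM, linear axes from 0) of ZIC1, ZIC4, ZIC2 and ZIC5 in each well, with replicate numbers as marker shapes and the mean and SD of the 3 wells of each coating beside the points. In CPM the coatings overlap for ZIC4 alone, and 19.9% of all genes tested did not overlap. In TPM they overlap for ZIC2 and ZIC5 as well. ZIC1 rises from a mean of 0.391 to 1.01 CPM.

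The balance within each pair was compared through the log2 ratio of counts in a well, which does not depend on library scaling. For ZIC2 over ZIC5 it was -0.06, 0.05 and -0.13 on LN-521 against -0.11, -0.02 and -0.00065 on LN-521+LN-221. On the linear scale the ratio was 0.916 to 1.04 in the LN-521 wells and 0.928 to 0.9995 in the LN-521+LN-221 wells, so the range of the latter lay inside that of the former. The mean difference between coatings was 0.0024 (exact permutation p = 1, two-sided), and the 9 differences between single wells ran from -0.16 to 0.13.

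For ZIC1 over ZIC4 the log2 ratio was 0.34, 1.93 and 1.72 on LN-521 against 1.03, 1.69 and 1.38 on LN-521+LN-221. The LN-521 well numbered 1, which had 7 ZIC4 counts, gave the lowest ratio. The group means were 1.33 ± 0.86 and 1.37 ± 0.33 (SD, n = 3), a difference of 0.04 (exact permutation p = 1, two-sided). The 9 differences between single wells ran from -0.89 to 1.35, and 3 wells against 3 cannot give a p below 0.1 for a ratio. Without the LN-521 well numbered 1 the difference was -0.45, and without the LN-521+LN-221 well numbered 2 it was -0.12. From TPM the difference was 0.51 (exact permutation p = 0.3).

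**Figure D3:**
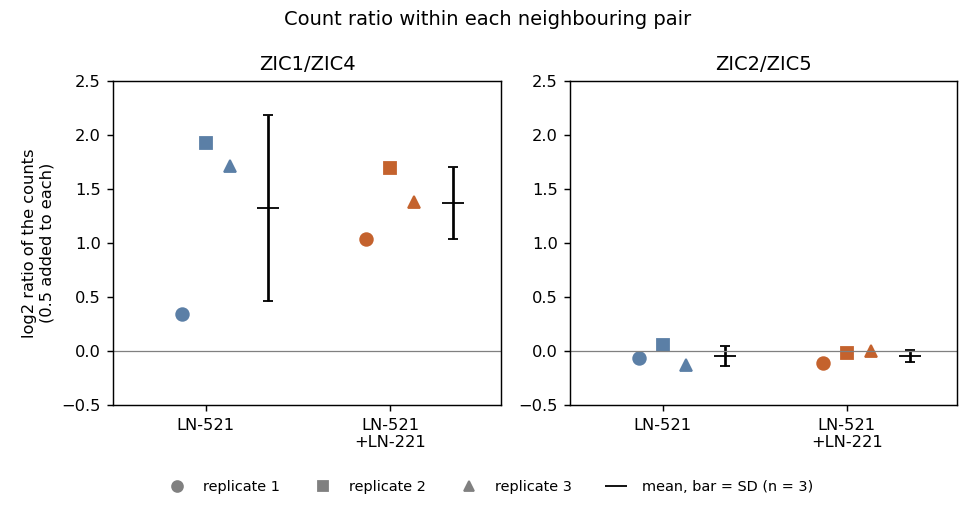
Log2 ratio of the counts within each neighbouring pair, with 0.5 added to each count; points are wells and the bars give mean and SD of the 3 wells of a coating. The ZIC2/ZIC5 ratios lie between -0.13 and 0.05 on both coatings, and the ZIC1/ZIC4 ratios spread from 0.34 to 1.93.

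The chromosomal surroundings were then examined. Within 1 Mb of ZIC1 and ZIC4 the annotation placed 21 other genes, of which 1 passed the filter and 0 passed the test. That gene, PLSCR1, a phospholipid scramblase gene, had a log2 fold change of -0.12 ± 0.08 (edgeR adjusted p = 0.549). ZIC4-AS1, which lies on the opposite strand within ZIC4, had 0 counts in all 6 wells. It shares 268 exon bases with ZIC4, so where counting ignored the strand, reads from those bases cannot be told apart between ZIC4 and ZIC4-AS1. Within 1 Mb of ZIC2 and ZIC5 there were 42 other genes, of which 14 passed the filter and 0 the test. The nearest of those tested were CLYBL, a mitochondrial lyase gene, at -0.20 ± 0.11 (adjusted p = 0.429), and PCCA-DT at -0.18 ± 0.14 (adjusted p = 0.596). PCCA, which encodes a subunit of propionyl-CoA carboxylase, was at 0.06 ± 0.06 (adjusted p = 0.720), and the ribosomal protein pseudogene RPL15P18 was at 0.09 ± 0.26 (adjusted p = 0.919).

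Genes with the most similar profile to each tested member were ranked by Pearson's r of log2 CPM over the 6 wells, as a description. The wells share their coating groups, so a gene that differs between coatings tends to resemble others that do. For ZIC1 the 3 most alike of 14646 genes were GADD45A, a stress-induced growth arrest gene (r = 0.993), ZNF189 (0.992) and TECTA (0.989), and 81 genes reached 0.95. Of these 3, GADD45A passed the test, with 3.30 ± 0.233 CPM on LN-521 against 5.85 ± 0.723 CPM on LN-521+LN-221 (log2 fold change 0.82 ± 0.15, edgeR adjusted p = 0.00487). SLC2A12, a glucose transporter gene (0.992), RCHY1, a ubiquitin ligase gene (0.990), and DESI2 (0.986) were most like ZIC2. Most like ZIC5 were ZNF431 (0.999), ZNF121 (0.996) and RGS5 (0.991). The neighbours ZIC2 and ZIC5 had r = 0.884 with each other, which ranked ZIC5 526th of 14646 genes for ZIC2.

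Because ZIC factors share their finger type with the GLI family, GLI and hedgehog genes were described beside them. Of 6 GLI and GLIS genes, 5 passed the filter and 0 passed the test in either direction, with a median log2 fold change of 0.10. GLI2, a main transcriptional activator of the hedgehog pathway, had 39.9, 42.2 and 40.2 CPM on LN-521 against 36.3, 36.9 and 36.8 CPM on LN-521+LN-221. Its log2 fold change was -0.15 ± 0.07 (edgeR adjusted p = 0.294), and its wells did not overlap, as for 19.9% of all genes tested. Of 15 hedgehog pathway genes, 11 passed the filter, 2 rose and 0 fell, against 1.40% and 1.14% of all genes tested. The median of the list was 0.01. Both of the hedgehog genes that rose encode co-receptors at the cell surface that bind hedgehog ligands. BOC rose from 12.03 ± 1.56 to 18.4 ± 0.827 CPM (log2 fold change 0.61 ± 0.10, edgeR adjusted p = 0.00231) and CDON from 47.6 ± 2.53 to 59.1 ± 1.31 CPM (0.32 ± 0.06, adjusted p = 0.0105). The ligand genes SHH, IHH and DHH, named after their values were seen, had too few counts to be tested. SHH had 0, 0 and 1 counts on LN-521 against 6, 3 and 1 on LN-521+LN-221. IHH had 3, 1 and 3 against 5, 3 and 2, and DHH had 2, 2 and 5 against 0, 4 and 2.

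The tissues in which ZIC genes act were covered by further lists. Of 14 anterior neural factors, 7 passed the filter, 3 rose and 1 fell, against 1.40% and 1.14% of all genes tested. The median log2 fold change of the 7 was 0.54. HESX1, a homeobox gene of the forebrain and pituitary, rose from 4.85 ± 0.939 to 10.2 ± 1.01 CPM (1.08 ± 0.14, edgeR adjusted p = 0.000184). FEZF1, a forebrain zinc finger gene, rose from 18.9 ± 3.21 to 27.3 ± 1.68 CPM (0.54 ± 0.10, adjusted p = 0.00730), and OTX2, which specifies anterior neural tissue and is active in the epiblast, rose by 0.72 ± 0.06 (adjusted p = 4.38e-06). SOX3, a SOXB1 factor of neural progenitors, fell from 7.355 ± 0.344 to 4.81 ± 0.541 CPM (-0.61 ± 0.13, adjusted p = 0.0165). LHX5, a LIM homeobox gene of the forebrain named after its values were seen, had 24.3, 23.4 and 12.1 CPM on LN-521 against 60.9, 63.5 and 76.5 CPM on LN-521+LN-221. The wells did not overlap, as for 19.9% of all genes tested. The log2 fold change was the largest among the 7 tested at 1.75 ± 0.30, with an edgeR adjusted p of 0.0865. Of 13 neural plate border and neural crest factors, 6 passed the filter, 0 rose and 1 fell, against 1.40% and 1.14% of all genes tested. FOXD3, a factor of neural crest that also acts in pluripotent cells, fell from 11.0 ± 0.184 to 5.26 ± 1.16 CPM (-1.07 ± 0.14, edgeR adjusted p = 0.000154), while the median of the list was 0.20.

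Of 10 markers of primed pluripotency, the state of conventional human stem cells, 9 passed the filter, 1 rose and 3 fell. Of all genes tested 1.40% rose and 1.14% fell, and the median of the list was 0.05. POU3F1, a POU factor of the epiblast and neural plate, rose by 0.57 ± 0.10 (edgeR adjusted p = 0.00471). DUSP6, a phosphatase acting on ERK, changed by -0.46 ± 0.09 (adjusted p = 0.00703), the surface glycoprotein gene THY1 by -0.38 ± 0.08 (adjusted p = 0.0146) and the WNT modulator gene SFRP2 by -0.27 ± 0.07 (adjusted p = 0.0382). With 1 library left out, HESX1, OTX2, FOXD3 and BOC passed in 6 of 6 fits, POU3F1 in 5, FEZF1 and DUSP6 in 4, CDON in 3, and SOX3, THY1 and SFRP2 in 2. NANOG and TDGF1 passed in 6, POU5F1 and GADD45A in 5 and LIN28A in 3. In the limma fits on TPM all of these calls, and that of DCX, were lost, except OTX2 with 1 added to the TPM (adjusted p = 0.0312). There HESX1 had an adjusted p of 0.0722 or 0.149, FOXD3 of 0.106 or 0.180 and BOC of 0.314 or 0.333, with 1 or 0.1 added, and OTX2 of 0.0582 with 0.1 added. The log2 differences there kept their direction, with 0.95 and 1.07 for HESX1, -0.78 and -1.01 for FOXD3 and 0.42 and 0.50 for BOC. Exons on the opposite strand share 513 bases with BOC, 2831 with CDON, 179 with FOXD3, 611 with FEZF1, 1875 with DUSP6, 632 with THY1, 248 with POU5F1, 110 with TDGF1, 1736 with SLC2A12 and 547 with RCHY1, so their counts are uncertain where counting ignored the strand.

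**Figure D4:**
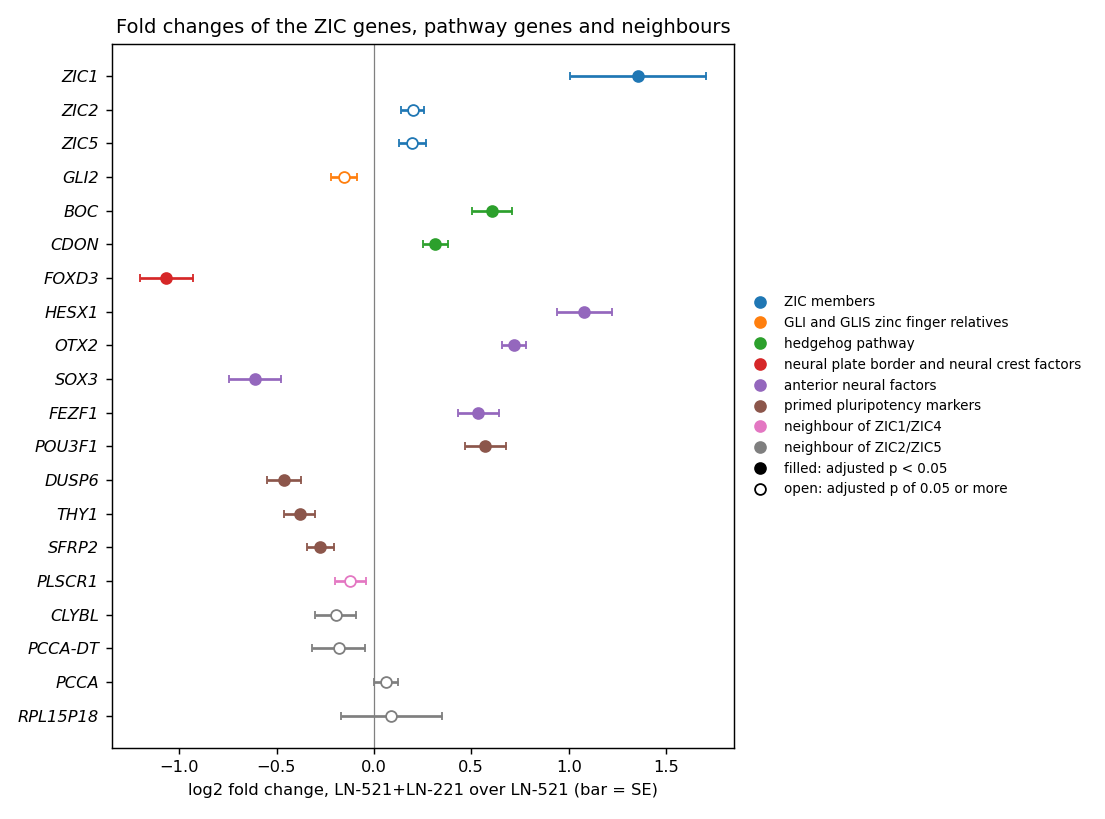
Log2 fold change, LN-521+LN-221 over LN-521, with its SE as bar, for the tested ZIC genes, the genes named from the fixed lists and the neighbours of the pairs; filled symbols have an edgeR adjusted p under 0.05. ZIC1 lies at 1.36 with a wide bar, and ZIC2 and ZIC5 lie together at 0.20 with narrow ones.

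Markers of cells that could stand beside the stem cells were measured for comparison with ZIC1 and ZIC4. Of 8 genes of neuroectoderm and neurons, 5 passed the filter, 0 rose and 1, DCX, fell. Of all genes tested 1.40% rose and 1.14% fell. DCX changed by -0.43 ± 0.11 (edgeR adjusted p = 0.0492). DESeq2 did not make that call (0.0629), and 1 of 6 fits with a library left out kept it. The summed level of the 8 genes was 102.71 to 112.34 TPM on LN-521 against 118.18 to 119.57 TPM on LN-521+LN-221. Most of that sum was TUBB3, at 100.07 ± 5.04 and 110.26 ± 1.42 TPM, which did not pass the test (edgeR adjusted p = 0.496) and had counts that were not whole in all 6 libraries. The neural progenitor gene PAX6 had 8, 14 and 8 counts on LN-521 against 11, 18 and 6 on LN-521+LN-221, and SOX1 had 7, 1 and 2 against 1, 9 and 4. The wells of the coatings overlapped for both genes. Other neural genes did separate the coatings: LHX5, named above, and SIX3, an anterior forebrain factor with 3, 3 and 1 counts on LN-521 against 6, 9 and 9 on LN-521+LN-221. The 5 mesendoderm markers, none of which passed the filter, summed to 0.25 to 0.6 TPM and 0.61 to 1.11 TPM, and the 4 definitive endoderm markers, of which 1 passed the filter and 0 the test, to 0.55 to 1.3 TPM and 0.81 to 0.95 TPM. Of 4 fibroblast markers 2 passed the filter and 0 the test, with a summed level of 76.8 to 89.8 TPM and 81.6 to 96.8 TPM, and LUM had 0 counts in all wells. The part of any of these cells in the ZIC1 and ZIC4 values was not tested.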

How the data were processed

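Total RNA of 3 wells a coating was sequenced in stranded libraries read in pairs of 150 bp, per the labels' protocols. The submitters' processing notes name cutadapt, STAR 2.5.2b, RSEM 1.2.31 and the build hg38. The annotation and the use of strand in counting are not given in the sources used here. The authors deposited estimated counts per gene, some not whole, and TPM values, which are scaled for transcript length and library. Symbols were taken from a table of gene IDs and names, and gene positions and exons from GENCODE 29, where 93.8% of the IDs were found.

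Estimated counts were rounded, filtered with filterByExpr (minimum count 10), scaled by TMM and tested with edgeR 4.0.16 in R 4.3.3 (quasi-likelihood, robust) on all 6 libraries with no block. Benjamini-Hochberg adjustment ran over 17608 genes at a threshold of 0.05, and all adjusted p-values are from this test unless another is named. CPM uses TMM-scaled library sizes. Pair ratios had 0.5 added to each count and were tested by exact permutation of the wells. The scripts were tested on simulated data. No wells of a group agreed within sampling noise (chi-square per degree of freedom of at least 2.85), and each counted as 1 replicate.

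The members and lists were chosen with earlier results of these data known. The genes named were the 4 members, up to 4 genes of each list with the largest log2 fold change among those past the threshold (or the gene with the highest mean TPM where none passed), up to 4 tested neighbours of each pair within 1 Mb, and the 3 genes most like each tested member with a mean CPM of 1 or more. SHH, IHH, DHH, LHX5, SIX3, PAX6, SOX1, TUBB3, LUM and ZIC4-AS1 were named after their values were seen. Some genes of this rule and 1 marker list are not reported here. Alternatives were RLE scaling, library size alone, other filters, a table without 7SL, 7SK, rRNA and mitochondrial genes, DESeq2 1.42.0, limma 3.58.1 on log2 TPM, a replicate block, thresholds of 0.01 or 0.1, and each library left out in turn; GC correction was added after seeing the data.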

Additional observations from a re-analysis of the deposited data

How the results depend on the processing

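The log2 fold changes of ZIC1, ZIC2 and ZIC5 were above 0 in every fit that tested them. ZIC1 passed the threshold with RLE scaling, without the low-count filter and without mitochondrial, ribosomal, 7SK and 7SL genes, but not with library size alone (1.35, adjusted p = 0.0501), in DESeq2 (1.37, adjusted p = 0.133) or at a threshold of 0.01 (1.36). Filters of 1 CPM and fits on TPM left ZIC1 and ZIC4 out. Without any low-count filter ZIC4 had a log2 fold change of 1.17 (adjusted p = 0.604), and the log2 ratio of its summed CPM was 1.22. Leaving out 1 library gave 1.203 to 1.499 for ZIC1, 0.166 to 0.241 for ZIC2, 0.138 to 0.249 for ZIC5 and 194 to 1179 genes past the threshold (1179 without LN-521 replicate 1, 194 without LN-521+LN-221 replicate 3). The pair differences with 1 library left out ran from -0.45 to 0.34 for ZIC1/ZIC4 and from -0.04 to 0.05 for ZIC2/ZIC5. With all libraries the ZIC1/ZIC4 difference was -0.03 with 0.1 added to the counts, 0.11 with 1 added and 0.51 from TPM, and ZIC2/ZIC5 was -0.05 from TPM. RPL15P18 ran from -0.02644 to 0.1722, below 0 without replicate 2 of either coating (-0.01977 without that of LN-521+LN-221). The log2 ratio of ZIC4 ran from 0.843 to 1.95, the highest without LN-521 replicate 1. Of 446 genes past the threshold in all, the number became 718 without a low-count filter, 33 and 16 with limma on log2(TPM + 1) and log2(TPM + 0.1), 221 at a threshold of 0.01 and 725 at 0.1. With 55.2% of the 446 higher, that share was 46.8% without a filter, 81.8% and 62.5% in the TPM fits. The causes were not tested.

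The replicate numbers recur in both coatings. Across all genes tested, wells with the same number did not deviate together (correlations of 0.0684, -0.0316 and -0.0185). Whether the numbers pair the wells for only some genes cannot be told from these correlations. With a replicate block 646 genes passed, of which 442 were among the 446. ZIC1 was then at 1.35 (adjusted p = 0.0387), ZIC2 at 0.20 (0.0697) and ZIC5 at 0.20 (0.0740). The pair differences, 0.04 and 0.0024, are the same by construction with a block of equal size, and its sign-flip test gave an exact p of 1 for each. A GC correction, added after seeing the data, gave 938 genes, with ZIC2 at 0.25 (adjusted p = 0.150) and ZIC5 at 0.20 (0.0518). The replicate block with GC correction gave 1095 genes, with ZIC2 at 0.26 (adjusted p = 0.000962) and ZIC5 at 0.20 (0.00553), while NANOG (-0.74, adjusted p = 0.0653), THY1 (-0.33, 0.0522) and FEZF1 (0.59, 0.0502) lost their calls. The cause was not tested. Counts of 2 to 27 limit what ZIC1 and ZIC4 can show.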
